A study of Bos taurus with 31 samples.

Results

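Genes that mark or regulate adipocytes were followed in bovine mammary epithelial organoids: 10 were listed, of which 7 had a row among the 14084 rows of the count table. They were chosen by name: FABP4, PLIN1, PLIN4, LIPE, PNPLA2, PPARG and ADIPOQ are described here, and CIDEA, CIDEC and CEBPA were not analysed here. Organoids are the clusters of epithelium that remain after collagenase digestion of mammary biopsy tissue. The virgin group had 15 libraries from heifers at 14 months of age, and the lactating group had 16 libraries from cows at 40 to 60 days of lactation. The libraries came from 16 dairy cows, 15 of which were sampled at both stages, while the cow of L495 gave a lactating library only. Libraries are named by stage and cow, so that V502 and L502 came from the same cow, and a letter after the number (V478A, V507R) is part of the label and is not explained in it. Within each cow the lactating biopsy was always the later one, so age, parity and the time of sampling cannot be told apart from stage. Per the labels' protocol, the floating fat layer was discarded after digestion and the pellet was cleared of most single cells by brief spins.

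Adipocytes store triacylglycerol in a large lipid droplet, coated by perilipins, and release fatty acids from it by stepwise lipolysis. PPARG is the nuclear receptor that drives adipocyte differentiation, and many of its targets, FABP4 and ADIPOQ among them, serve as markers of the mature cell. Several of these genes are also used by other cells: FABP4 is well known in the endothelium of small vessels and in macrophages, PPARG is present in macrophages, and PNPLA2 acts in many tissues. In the mammary gland, adipocytes surround the epithelial tree of the heifer and make up less of the gland in lactation.

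Total counts were 20128378 to 60114505 in virgin and 26827018 to 72138358 in lactating libraries, repeated rows included. With rows of identical counts taken once, they were 12477568 to 38794104 and 17637505 to 45478555. All 7 genes had at least 3 counts in every library. The composition factors by which the library sizes were corrected (TMM, edgeR) were 0.909 to 1.55 in virgin and 0.596 to 1.21 in lactating libraries. Without them the median log2 fold change of all tested rows moved by −0.48, so changes are given relative to the TMM scale, and values without TMM are given beside the genes and lists whose calls they alter. All 15 luminal epithelial markers were counted in every library, and their summed level was 2777 to 12102 CPM in virgin and 2150 to 5328 CPM in lactating libraries. CPM are counts scaled to a common library size after TMM. In the lactating libraries, milk protein genes held either 0.243% to 11.4% (7 libraries, L478 and L538 among them) or 26.1% to 51.5% (9 libraries). These are shares of the counts with rows of identical counts taken once.

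Of the 7 genes, FABP4, PPARG, LIPE and PLIN4 were higher in lactation, PLIN1 was lower, and PNPLA2 and ADIPOQ did not pass the test. Calls used edgeR's quasi-likelihood test with Benjamini-Hochberg adjusted p under 0.05 over 13180 tested rows. Of all those rows 24.2% were called higher and 30.9% lower, so a call in either direction was common in this comparison. Without TMM these shares were 10.5% and 58.8%, with 1 and 2 of the 7 genes, and with the cow as a block they were 27.9% and 27.8%, with 4 and 1 of the 7. The median log2 fold change, lactating over virgin, was 0.91 over the 7 genes and −0.08 over all tested rows. In bulk RNA of this kind, more cells of a type and more RNA per cell cannot be told apart.

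**Figure D1:**
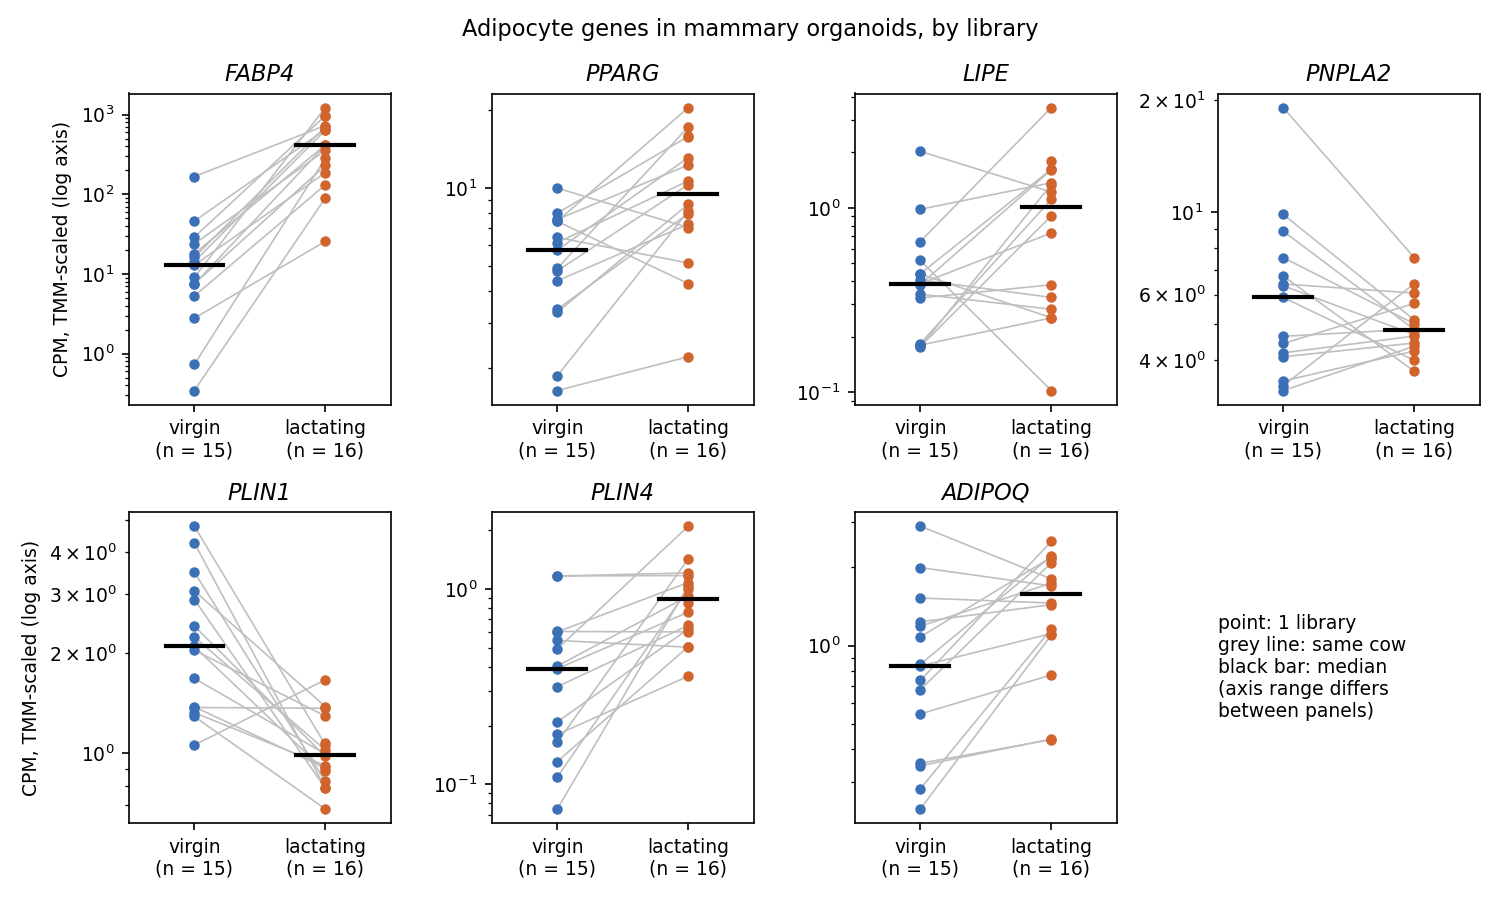
CPM (counts scaled to the TMM-corrected library size, log axis) of each of the 7 genes in every virgin and lactating library, 1 point per library, with grey lines joining libraries of the same cow, black bars at the medians and axis ranges that differ between panels. FABP4 lies highest in lactation, with a median of 414 against 12.9 CPM in virgin libraries, while the lactating PLIN1 points lie below the virgin median of 2.09 CPM.

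FABP4 (ENSBTAG00000037526) encodes the adipocyte fatty acid binding protein, a small cytosolic lipid carrier. In virgin libraries it ranged from 0.346 CPM in V478A to 167 CPM in V502, with a median of 12.9 CPM. In lactating libraries it ranged from 25.6 CPM in L538 to 1219 CPM in L507, with a median of 414 CPM. The 7 lactating libraries of lower milk protein share were at 25.6 to 412 CPM (median 187). The 9 of higher share were at 355 to 1219 CPM (median 703). The virgin and lactating groups overlapped: 13 of 16 lactating libraries lay above every virgin library, while V502, V598A and V479 lay above L538, the lowest lactating one. V502 stood apart at the top of the virgin group, since the next library, V598A, was at 46.0 CPM. The mean rose from 24.0 ± 41.3 CPM (SD, n = 15) to 498 ± 351 CPM (SD, n = 16), a log2 fold change of 4.38 ± 0.65 (SE, adjusted p = 1.36e-06, edgeR). FABP4 was higher in lactation in 15 of 15 cows, with paired log2 differences from 2.13 between V502 and L502 to 8.48 between V531B and L531. It was called higher in each alternative run, at 3.69 without TMM, 4.99 with the cow as a block and 5.17 without V502.

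PPARG (ENSBTAG00000001333), the adipogenic nuclear receptor, ranged from 1.64 CPM in V478A to 9.98 CPM in V581, with a virgin median of 5.74 CPM. In lactation it ranged from 2.22 CPM in L478 to 20.5 CPM in L507, with a median of 9.48 CPM. Of the lactating libraries, 8 of 16 exceeded every virgin library, and L478 and L504 (4.26 CPM) lay at the lower end. The 7 lactating libraries of lower milk protein share reached at most 8.65 CPM (median 7.02), so none of them exceeded the highest virgin library. The 9 of higher share were at 8.13 to 20.5 CPM (median 13.1). PPARG rose from 5.53 ± 2.37 CPM (SD, n = 15) to 10.4 ± 5.07 CPM (SD, n = 16), a log2 fold change of 0.91 ± 0.26 (SE, adjusted p = 0.00332, edgeR). It was higher in 12 of 15 cows and lower in the cows of V504, V538 and V581. Without TMM factors the call was lost (log2 fold change 0.34, adjusted p = 0.180). The counted PPARG locus spanned 123586 bp, 1.89 times the length of the gene in the RefSeq table, so reads of neighbouring sequence may be counted with it.

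The lipases of the lipid droplet did not move together. PNPLA2 (ATGL, ENSBTAG00000005144), which removes the first fatty acid from triacylglycerol, ranged from 3.31 CPM in V615 to 19.1 CPM in V479 in virgin libraries, with a median of 5.89 CPM. In lactation it ranged from 3.73 CPM in L504 to 7.54 CPM in L479, with a median of 4.83 CPM. The groups overlapped, and V479 lay far above the next virgin library, V581, at 9.85 CPM. Means were 6.55 ± 4.00 CPM (SD, n = 15) and 5.03 ± 0.976 CPM (SD, n = 16), and the log2 fold change of −0.38 ± 0.19 (SE, adjusted p = 0.0942, edgeR) did not pass the test. PNPLA2 was lower in 8 cows and higher in 7. Its log2 fold change was −0.17 without V479, and it was called lower only without TMM factors (−0.83, adjusted p = 1.01e-04).

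LIPE (hormone-sensitive lipase, ENSBTAG00000038321), which mainly acts on the diacylglycerol that PNPLA2 leaves, was near the limit of detection, with 5 to 37 counts per virgin and 7 to 89 per lactating library. The counted LIPE locus spanned 11376 bp, 0.55 times the RefSeq gene length, so part of the gene may not be counted. Virgin libraries ranged from 0.176 CPM in V468A to 2.02 CPM in V479, with a median of 0.388 CPM. Lactating libraries ranged from 0.102 CPM in L478 to 3.49 CPM in L507, with a median of 1.01 CPM. The lowest value of all was thus in a lactating library, and only L507 lay above the highest virgin library. In the 7 lactating libraries of lower milk protein share LIPE was at 0.102 to 0.730 CPM, with a median of 0.282 CPM, below the virgin median. In the 9 of higher share it was at 0.904 to 3.49 CPM, with a median of 1.37 CPM, so the higher lactating level lay in these. The log2 fold change of 1.07 ± 0.41 (SE, adjusted p = 0.0247, edgeR) was a rise in 10 of 15 cows. The call was not held without L507 (0.83, adjusted p = 0.0687) or with the cow as a block (0.83, adjusted p = 0.0617). Nor was it held without TMM (0.52, adjusted p = 0.183), in limma-voom (0.79, adjusted p = 0.112) or without the 5 cows whose virgin label carries a letter (0.78, adjusted p = 0.175).

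The droplet coat proteins PLIN1 and PLIN4 went in opposite directions. PLIN1 (ENSBTAG00000015350) encodes perilipin 1, which coats the adipocyte droplet and restrains basal lipolysis. It ranged from 1.06 CPM in V581 to 4.79 CPM in V538 in virgin libraries, with a median of 2.09 CPM. In lactation it ranged from 0.682 CPM in L507 to 1.66 CPM in L581, with a median of 0.988 CPM. Of the virgin libraries, 10 of 15 lay above every lactating library, and none of the 16 lactating libraries reached the virgin median. PLIN1 fell from 2.36 ± 1.14 CPM (SD, n = 15) to 1.04 ± 0.263 CPM (SD, n = 16), a log2 fold change of −1.18 ± 0.20 (SE, adjusted p = 7.85e-06, edgeR). It was lower in 14 of 15 cows, and the exception was the cow of V581 and L581, with the lowest virgin and the highest lactating value and a paired log2 difference of 0.62. The largest paired fall, −2.36, was between V531B and L531, the pair with the largest rise of FABP4. PLIN1 was called lower in every alternative run.

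PLIN4 (ENSBTAG00000015690), a perilipin found on small, newly forming droplets, had 3 to 66 counts per virgin and 14 to 63 per lactating library. Its counted locus spanned 10155 bp, 0.75 times the RefSeq gene length, so part of the gene may not be counted. PLIN4 ranged from 0.0748 CPM in V490 to 1.17 CPM in V538 in virgin libraries, with a median of 0.391 CPM. In lactation it ranged from 0.358 CPM in L615 to 2.09 CPM in L468, with a median of 0.885 CPM. Of the lactating libraries 4 lay above every virgin library, and 7 virgin libraries lay below every lactating one. PLIN4 rose by a log2 fold change of 1.05 ± 0.31 (SE, adjusted p = 0.00546, edgeR) and was higher in 13 of 15 cows, the exceptions being the cows of V502 and V610. It was not called on the scale without TMM (0.49, adjusted p = 0.175) or when the 5 cows with lettered virgin labels were left out (0.76, adjusted p = 0.112).

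ADIPOQ (ENSBTAG00000019813) encodes adiponectin, a hormone secreted by mature adipocytes and the most adipocyte-restricted of the genes described. It ranged from 0.236 CPM in V531B to 2.88 CPM in V610 in virgin libraries, with a median of 0.836 CPM. In lactation it ranged from 0.436 CPM in L538 to 2.52 CPM in L504, with a median of 1.58 CPM. The groups overlapped, with V610 above every lactating library and 4 virgin libraries below every lactating one. ADIPOQ was at 0.985 ± 0.721 CPM (SD, n = 15) and 1.52 ± 0.642 CPM (SD, n = 16), and its log2 fold change of 0.61 ± 0.30 (SE, adjusted p = 0.0880, edgeR) did not pass the test. It was higher in 12 of 15 cows and lower in the cows of V509, V581 and V610. With the cow as a block it was called higher (0.73, adjusted p = 0.0102), as it was without V610 (0.80, adjusted p = 0.0191), without V509 (0.72, adjusted p = 0.0454) and without both L478 and L538 (0.75, adjusted p = 0.0269). Without TMM its log2 fold change was 0.07.

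**Figure D2:**
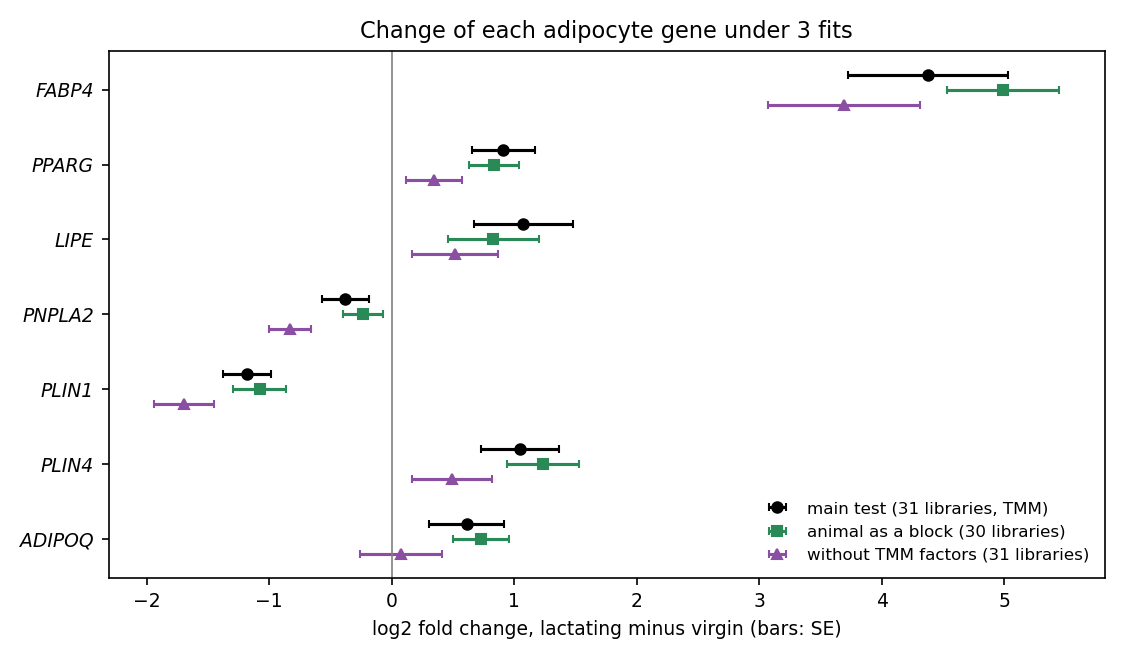
Log2 fold change (lactating over virgin) of each gene with its standard error as the bar, in the TMM fit of 31 libraries, with the cow as a block (30 libraries) and without TMM. FABP4 at 4.38 is set apart from the others, PLIN1 lies below 0 in all 3 fits, and the values without TMM lie to the left of the others.

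In the deposited comparison FABP4 and PLIN1 also had the smallest adjusted p-values of the 7 genes. The authors' deposited table gave FABP4 a log2 fold change of −4.41, coded virgin minus lactating, with an adjusted p-value of 5.89e-09. The authors' deposited table gave PLIN1 a log2 fold change of 1.15 with an adjusted p-value of 5.27e-04. For the other 5 genes the adjusted p-value in the authors' deposited table was 1.

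Levels were compared between genes by the deposited RPKM values, which are per kilobase of the whole counted gene, introns included. In virgin libraries the median level was 2.72 RPKM for FABP4 and 1.17 RPKM for PNPLA2, and the ranges of these neighbours overlapped. PLIN1 came next at 0.140 RPKM, below every PNPLA2 value. ADIPOQ (0.0598), PPARG (0.0436), PLIN4 (0.0368) and LIPE (0.0331 RPKM) followed, each with a range that overlapped its neighbour in this order. In lactating libraries FABP4 was at a median of 88.8 RPKM, and its lowest value of 5.65 RPKM lay above every PNPLA2 value. PNPLA2 was at 0.957 RPKM, and ADIPOQ (0.116), LIPE (0.0851), PLIN4 (0.0838), PPARG (0.0728) and PLIN1 (0.0681 RPKM) lay below it with overlapping ranges. PLIN1, the third in order in virgin libraries, was the lowest of the 7 in lactation by its median RPKM. The counted loci ran from 4388 bp (FABP4) to 123586 bp (PPARG), so this order depends on locus length. By CPM, which are not set per length, the virgin median of PPARG was 5.74, near PNPLA2 (5.89) and above PLIN1 (2.09). In lactation PLIN4 (0.885) had a lower median CPM than PLIN1 (0.988).

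Markers of other cells moved with the same contrast. All 16 endothelial markers were called higher in lactation, by log2 fold changes of 1.42 (TIE1) to 2.88 (ESAM) with a median of 2.26, and without TMM 15 were called higher (TIE1, 0.86, adjusted p = 0.0649, was not). Their summed level was 40.1 to 906 CPM in virgin libraries (median 189) and 309 to 2166 CPM in lactating libraries (median 1104). SOX17 had no count in 2 virgin libraries and CLDN5 and EGFL7 in 1 each, while the other 13 endothelial markers were counted in every library. Of 14 macrophage and monocyte markers, 13 were called higher, with a median of 1.79 (12 without TMM, where FCER1G lost its call), and none was at 0 in any library. The share of all tested rows called higher was 24.2%, and 10.5% without TMM. The macrophage sum was 47.0 to 139 CPM in virgin and 270 to 967 CPM in lactating libraries. CD14 and CD83, with lactating means of 208 and 147 CPM, were its largest parts, while CSF1R was at 12.6 CPM. The counted CD14 locus was 25.9 times the RefSeq gene length, so reads of neighbouring sequence may be counted with it. The part of either cell type in the rise of FABP4 or PPARG was not tested. The log2 fold change of FABP4, 4.38, was larger than that of each of the 16 endothelial markers.

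**Figure D3:**
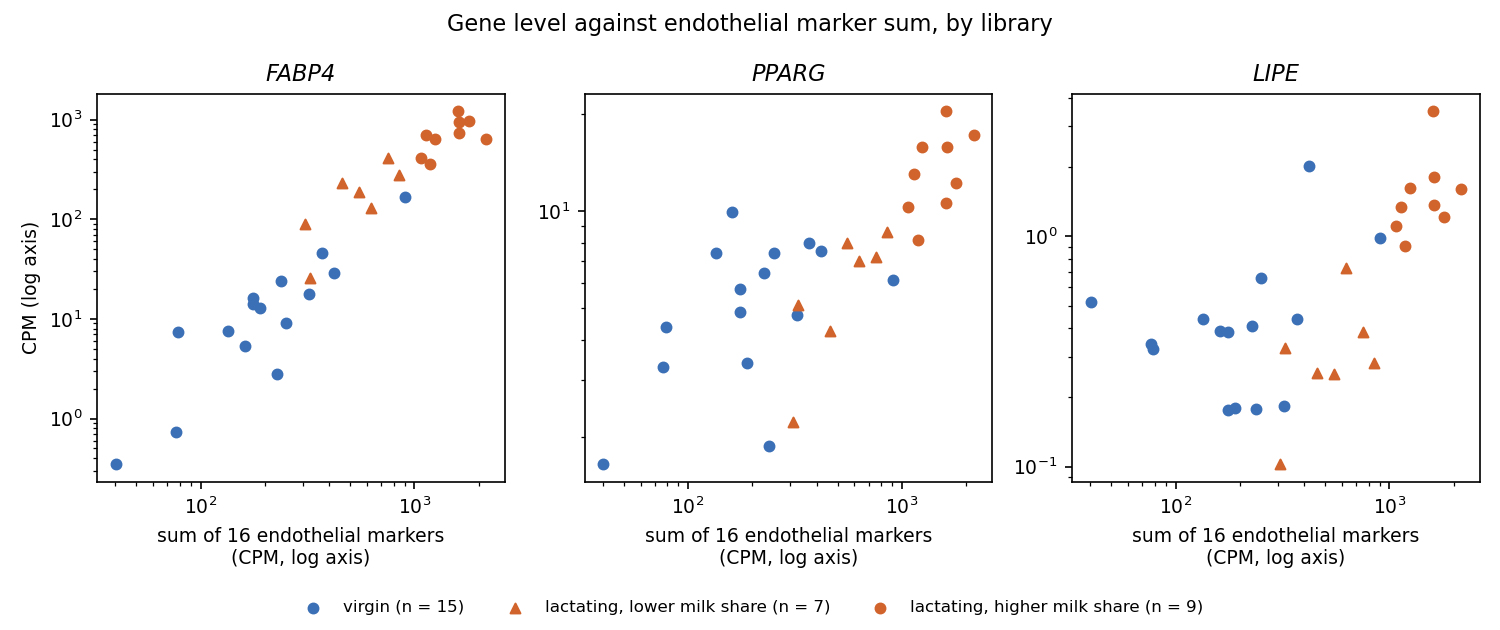
CPM of FABP4, PPARG and LIPE against the summed CPM of 16 endothelial markers, 1 point per library on log axes, with virgin libraries in blue and lactating ones in orange (triangles, lower milk protein share). FABP4 follows the endothelial sum within the virgin libraries (Pearson r of 0.88), while PPARG and LIPE scatter more widely.

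Among virgin libraries, the level of FABP4 followed the endothelial sum. Relations on the log2 CPM scale were computed for 7 genes with 4 marker lists (endothelial, macrophage, fibroblast and luminal) in 3 sets of libraries, 84 in all. The sets were the virgin libraries and, because the lactating ones separate by milk protein share and endothelial sum, the 7 and the 9 lactating libraries apart. Across the 15 virgin libraries FABP4 correlated with the endothelial sum at Pearson's r = 0.88 (permutation p = 2e-05, adjusted 0.00168) and Spearman's rho = 0.85 (permutation p = 1.80e-04, adjusted 0.0151). Without V478A and V502, the libraries farthest from the median, r was 0.72. This was the only relation of the 84 for which both measures passed after adjustment. The relations were chosen after the values were seen, so their p-values are read as a description.

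In the lactating libraries the same relation did not pass. Over the 7 of lower milk share, FABP4 and the endothelial sum gave r = 0.80 (exact permutation p = 0.0234, adjusted 0.224) and rho = 0.79 (exact permutation p = 0.048), and r was 0.46 without L478 and L538. Over the 9 of higher milk share r was 0.57 (exact permutation p = 0.113) and rho was 0.45. In those 9 libraries FABP4 was closer to the macrophage sum, at r = 0.67 (exact permutation p = 0.0486, adjusted 0.307) and rho = 0.82 (exact permutation p = 0.0108, adjusted 0.194). FABP4 and the macrophage sum gave r = 0.19 in virgin libraries. PPARG correlated with the endothelial sum at r = 0.83 (exact permutation p = 0.0131, adjusted 0.224) and rho = 0.86 over the 7 libraries of lower milk share, and r was 0.77 without L478 and L538. The same relation of PPARG gave r = 0.50 over the 9 libraries (exact permutation p = 0.163) and r = 0.51 in virgin libraries (permutation p = 0.0547, adjusted 0.307), none of which passed after adjustment. With the fibroblast sum, FABP4 gave r = 0.75 in virgin libraries (permutation p = 0.00173, adjusted 0.0484) but rho = 0.43, and r was 0.47 without V478A and V502, so that this relation rests on those libraries. V502 also had the highest fibroblast sum, at 24818 CPM. With the luminal sum, PNPLA2 gave r = 0.75 in virgin libraries (permutation p = 0.00125, adjusted 0.0484) and rho = 0.65, and r was 0.45 without V479 and V581. V479 had both the highest PNPLA2 level and the highest luminal sum of all libraries, 12102 CPM.

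**Figure D4:**
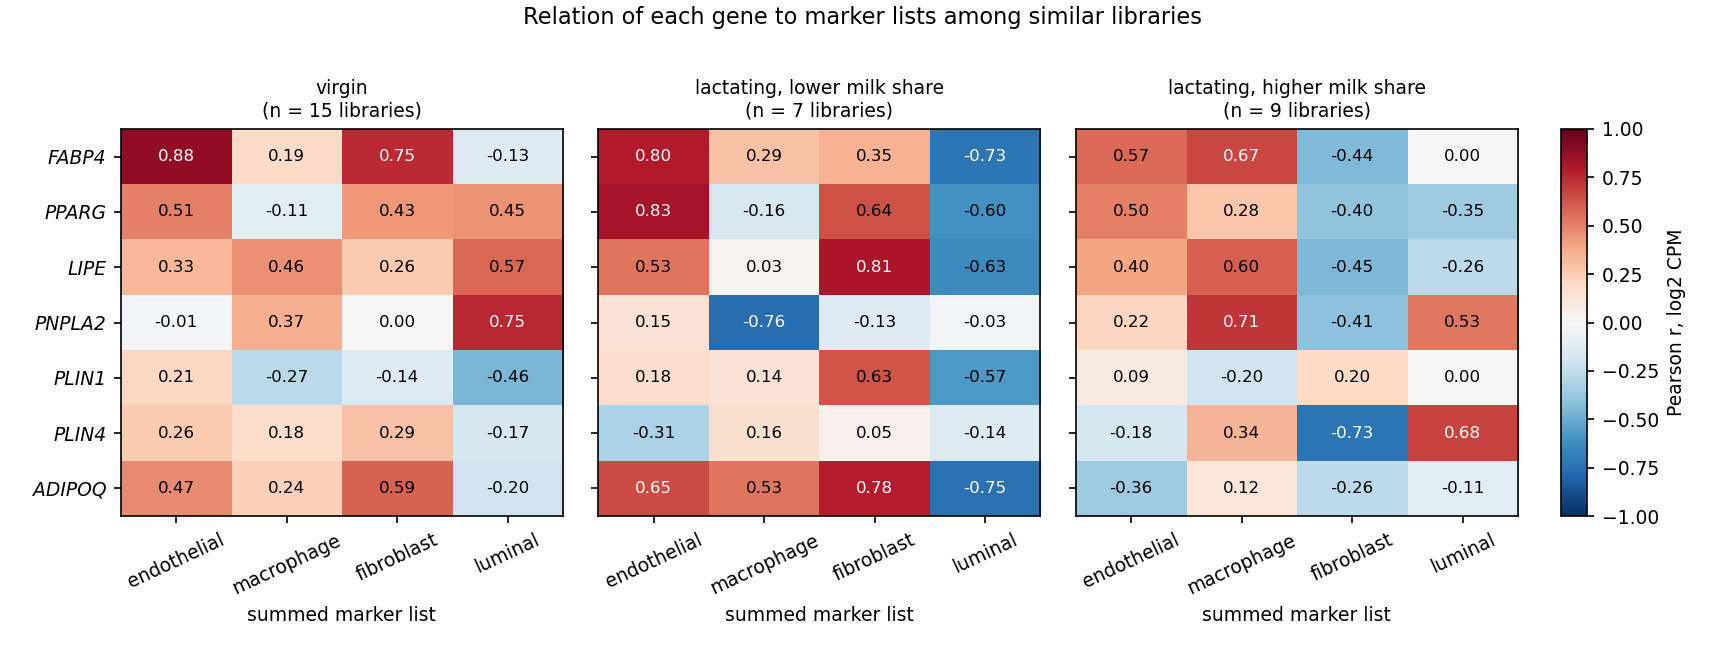
Pearson's r on the log2 CPM scale (colour and number) of each gene with the summed markers of 4 cell types, in virgin libraries (n = 15) and in lactating libraries of lower (n = 7) and higher (n = 9) milk protein share. FABP4 with the endothelial sum in virgin libraries, r of 0.88, is the relation that passed adjustment by both measures.

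Levels per unit of the endothelial sum are given as a description, without a test, since the ratio was chosen after the values were seen and follows from the fold changes above. For FABP4 the ratio, in CPM per 1000 CPM of the endothelial sum, ranged from 8.61 to 184 in virgin libraries (median 67.9) and from 78.8 to 759 in lactating libraries (median 420), and it was higher in lactation in 15 of 15 cows. For PPARG it ranged from 6.78 to 62.1 in virgin libraries (median 28.3) and from 6.61 to 15.7 in lactating libraries (median 9.68), and it was lower in lactation in 15 of 15 cows. PPARG thus rose in level but by less than the endothelial sum, while FABP4 rose by more. For LIPE the medians were 2.19 and 0.805, and the ratio was lower in 11 of 15 cows.

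The genes whose levels across libraries were most like each of the 7 were found by the mean of the Spearman correlations within virgin and within lactating libraries, among the rows that carry a symbol and average at least 2 on the log2 CPM scale. Virgin values (n = 15) are given, as a description without a test, since lactating values include the separation by milk share. The genes most like FABP4 were CDH5 (rho 0.95), an endothelial cadherin and 1 of the 16 endothelial markers, and then STARD8 (0.86), ABCG2 (0.88), ADGRF5 (0.88) and PTPRM (0.89). Those most like PPARG were TCN2 (0.89), PDLIM1 (0.82), TINAGL1 (0.77), CDH13 (0.84) and PGM5 (0.80). Those most like LIPE were PRAF2 (0.82), RARRES2 (0.82), TNS2 (0.83), FRMD4A (0.80) and PLOD3 (0.77).

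For ADIPOQ the nearest genes were CCBE1 (0.73), LUM (0.84), PRR16 (0.85), ANGPTL1 (0.70) and ADAM12 (0.91), of which LUM is 1 of the fibroblast markers. In lactating libraries rho of ADIPOQ with these genes was lower for most, from 0.34 (ADAM12) to 0.75 (CCBE1). PNPLA2 was nearest to CSRNP1 (0.77), INPP5K (0.82), STK25 (0.71), LZTR1 (0.75) and NUMA1 (0.81). PLIN1 was nearest to PTPN1 (0.86), ING5 (0.82), TMEM18 (0.65), RUNX3 (0.43) and ANKS1A (0.77). PLIN4 had the weakest likeness, to POFUT1 (0.62), DOCK8 (0.62), ME2 (0.60) and PLEKHN1 (0.29). In lactating libraries rho was 0.75 both for RUNX3 with PLIN1 and for PLEKHN1 with PLIN4, above their virgin values. Among the 7 genes themselves, rho between FABP4 and PPARG was 0.28 in virgin and 0.86 in lactating libraries (n = 15 and 16). Between FABP4 and LIPE it was 0.08 and 0.86, and between LIPE and PPARG 0.51 and 0.91. The lactating values span both ranges of milk protein share and so include the separation between them.

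Other genes of the adipocyte programme were split. Of 18 further adipocyte markers, 8 had a row in the count table and were tested: 4 were higher, 2 lower and 2 not called, with a median log2 fold change of 0.28. The others, LEP, RETN, ADRB3 and UCP1 among them, had no row under those names, so the counts cover only part of the list. Without TMM 3 were higher and 2 lower. The shares over all tested rows were 24.2% higher and 30.9% lower, and 10.5% and 58.8% without TMM. LPL, the lipase that frees fatty acids from circulating lipoproteins, rose by 5.73 ± 0.64 (SE, adjusted p = 1.00e-08, edgeR), and CD36, a fatty acid transporter listed in 3 rows with the same counts, by 3.37 ± 0.32 (adjusted p = 6.16e-10). CFD (adipsin) rose by 2.13 ± 0.39 (adjusted p = 2.66e-05), from 1.15 ± 1.33 CPM to 4.93 ± 2.50 CPM. SLC2A4, the insulin-responsive glucose transporter of fat and muscle, had a log2 fold change of −1.20 ± 0.21 (adjusted p = 1.19e-05). AGPAT2 was also called lower, but its counted locus was 8.61 times the RefSeq gene length, and with the cow as a block the call was lost (adjusted p = 0.0678).

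Lipid droplet and lipolysis genes were mostly higher. Of 12 tested, 9 were called higher and 2 lower, with a median of 0.49, beside 24.2% and 30.9% of all tested rows. Without TMM 3 were called higher and 2 lower, beside 10.5% and 58.8% of all tested rows. PLIN2, the perilipin of milk-secreting and many other cells, rose from 179 ± 58.1 to 616 ± 224 CPM, a log2 fold change of 1.78 ± 0.18 (adjusted p = 9.51e-10, edgeR). PLIN2 was therefore far above PLIN1 and PLIN4 in CPM in both stages, values that are not set per length. MGLL, which splits the last fatty acid from glycerol, rose by 1.56 ± 0.25 (adjusted p = 3.24e-06), and LPIN1, a phosphatidate phosphatase, by 1.69 ± 0.36 (adjusted p = 2.04e-04). FITM2, a droplet-forming protein of the endoplasmic reticulum, was lower by a log2 fold change of −0.64 ± 0.18 (adjusted p = 0.00255). HILPDA, an inhibitor of PNPLA2, was called lower (−2.14 ± 0.40, adjusted p = 4.30e-05), in 10 of 15 cows, with a counted locus 4.73 times the RefSeq length.

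Of 20 tested partners and regulators of adipogenesis, 14 were called higher and 1 lower, with a median of 0.89, against 6 and 6 without TMM. Over all tested rows 24.2% were called higher and 30.9% lower, against 10.5% and 58.8% without TMM. PPARD rose by 1.48 ± 0.16 (adjusted p = 2.93e-09, edgeR), ADIPOR2, an adiponectin receptor, by 1.14 ± 0.14, PPARA by 1.10 ± 0.16 and NR1H3, a sterol-sensing nuclear receptor, by 1.42 ± 0.26. These 4 were also called without TMM. RXRB was the gene called lower, at −0.41 ± 0.14 (adjusted p = 0.00988).

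**Figure D5:**
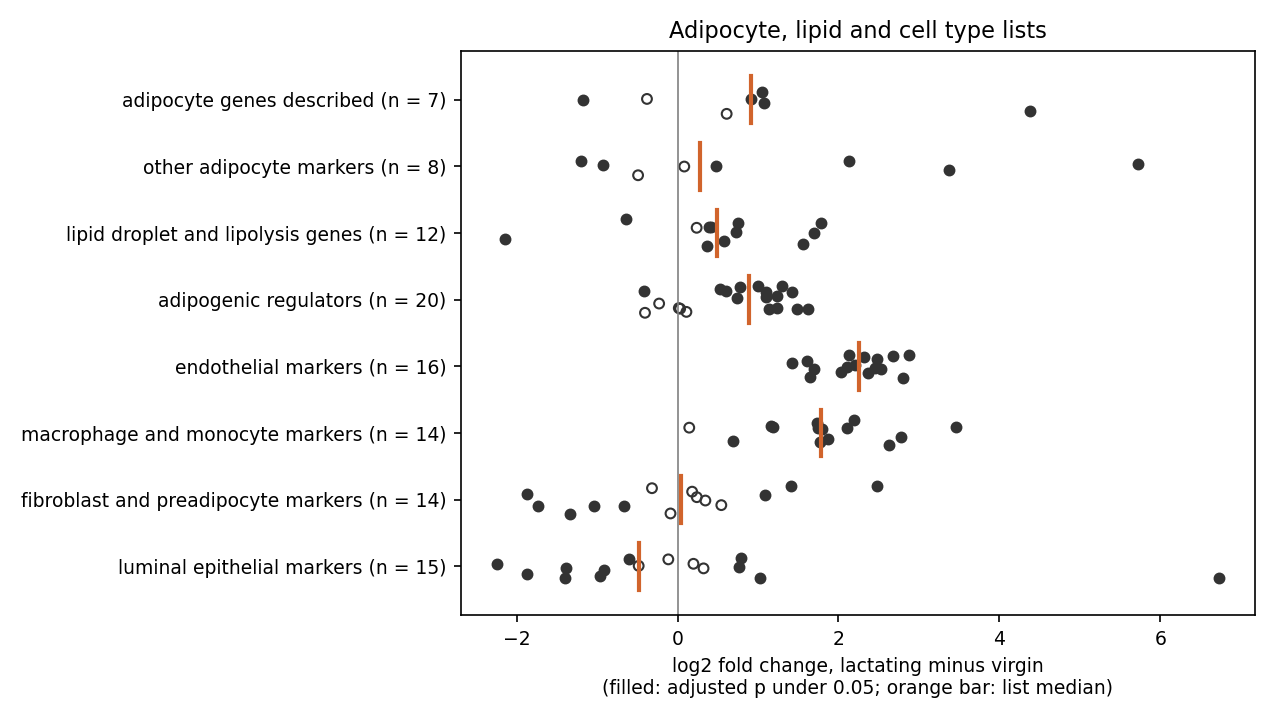
Log2 fold change (lactating over virgin) of every tested gene in 8 of the lists, 1 point per gene, filled where the adjusted p was under 0.05, with an orange bar at the median of the list. All 16 endothelial and 13 of 14 macrophage markers were called higher, while the 7 adipocyte genes lie between −1.18 (PLIN1) and 4.38 (FABP4).

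Epithelial and stromal markers were split as well. Of 15 luminal markers, 4 were called higher and 7 lower, with MUC1 up by 6.73 and KRT18 at −2.24. Without TMM only MUC1 was called higher and 8 were lower, with the calls of KIT, PROM1 and ELF5 lost. Of 9 myoepithelial markers 2 were higher and 3 lower (1 and 4 without TMM), and all 7 milk protein genes were higher. KRT14 and KRT17, both among the myoepithelial markers called lower, had the same counts. With each repeated locus taken once, 8 myoepithelial markers were tested, 2 higher and 2 lower. The fibroblast and preadipocyte list was split, with 3 higher and 5 lower of 14, 1 and 5 without TMM, and 6 higher and 1 lower with the cow as a block. Over all tested rows 24.2% were called higher and 30.9% lower, 10.5% and 58.8% without TMM, and 27.9% and 27.8% with the cow as a block. In the main fit the myoepithelial and fibroblast counts were near those shares, so they are not a trait of these lists. PI16 (2.48 ± 0.42, SE), PDGFRB (1.09 ± 0.35) and DLK1 (1.41 ± 0.56), the last an inhibitor of adipocyte differentiation made by preadipocytes, were called higher, and of these PI16 alone was called without TMM. Of the 5 called lower, DCN (−0.67 ± 0.15) and COL1A1 (−1.87 ± 0.61) had the smallest p. With the cow as a block DCN was still called lower (−0.62), while COL1A1 was at 0.004 and was not called. The summed fibroblast markers were 380 to 24818 CPM in virgin libraries (median 1325) and 708 to 2215 CPM in lactating libraries (median 1457). The virgin maximum was V502 alone, and the next virgin library, V581, was at 2729 CPM. The part of these markers in the values of the 7 genes was not tested.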

How the data were processed

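The deposited table of read counts, made by the authors with no normalization, held whole-number counts per gene for 31 libraries. The authors' second deposited table held RPKM values, log2 fold changes and adjusted p-values, and was used for levels between genes and for their values quoted above. The tools named, per the submitters' processing notes, were featureCounts 1.5.2, Subread, HISAT2 2.0, StringTie 1.3.2, SAMtools and edgeR, on build UMD3.1. How each was set is not given in the sources used here. Per the labels' protocols, libraries were strand-specific and made from poly-A RNA with a RIN of 7.5 or more.

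Counts were analysed with edgeR 4.0.16 in R 4.3.3: filterByExpr (minimum count 10, minimum total 15) kept 13180 of 14084 rows, followed by TMM, glmQLFit with robust estimation and glmQLFTest with stage as the only term. A standard error is the log2 fold change divided by the square root of F. CPM used TMM-scaled libraries, and correlations used log2 CPM with a prior count of 2. Gene lengths were recovered from counts and RPKM, and were compared with those of the RefSeq gene table, which is of another build, so no coordinates are given. The steps were tested on simulated data with 200 changed rows. No pair of libraries within a stage agreed within sampling noise (lowest chi-square per degree of freedom 35.0).

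The replicate number is the cow, per the series design, so it pairs the libraries. After removal of stage means, libraries of the same cow correlated at 0.0702 to 0.392 (mean 0.221), against a mean of −0.016 between cows. Of the 15 pairs, 12 were over 0.1, and in 9 the same cow gave the highest correlation. The p-values of the unpaired fit treat the libraries as independent. Alternatives were no TMM, no filter, at least 1 CPM in 15 libraries, the cow as a block, repeated loci once, libraries left out, milk genes out of the library size, limma-voom (limma 3.58.1) and DESeq2 1.42.0.

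The 7 genes and all lists were chosen with earlier results of these data known. Named list genes were taken from the up to 4 with the smallest p in each list and those called against its main direction. The correlations and ratios to marker sums were chosen after the values were seen. Permutation tests of the correlations used NumPy 2.4.6 with 100000 resamples, or were exact for sets under 10, and ranks were taken with SciPy 1.17.1. One gene that the rule on likeness named is not reported here.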

Additional observations from a re-analysis of the deposited data

How the results depend on the processing

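Of the 7 adipocyte genes, 4 were called higher and 1 lower. Without TMM factors the counts were 1 higher (FABP4) and 2 lower (PLIN1 and PNPLA2). At least 1 CPM in 15 libraries left 5 genes tested and 2 called higher, and leaving out the 5 cows with a lettered virgin label also gave 2 higher. With the replicate block (the cow, 30 libraries) 4 were higher and 1 lower: ADIPOQ was gained and LIPE lost. DESeq2 gave 4 and 1. Leaving out each library gave 3 to 5 higher and 1 lower throughout. For the 3 adipocyte programme lists, 27 genes were called higher and 5 lower, against 12 and 10 without TMM, 25 to 27 and 5 to 6 with a library left out. The shares over all tested rows were 24.2% higher and 30.9% lower, and 10.5% and 58.8% without TMM. None of the 7 genes changed sign in the alternatives run. The cause of the lost calls was not tested. LIPE and PLIN4, with as few as 5 and 3 counts in a library, are the values depth limits most. Intervals and SDs cover the libraries sampled here.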
